A study of Mus musculus with 12 samples.

Results

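Elastic fibres give arteries, airways and alveolar walls their recoil, and the genes described here encode their core protein, the microfibrils around it and the proteins that join them. The set was given as 10 gene symbols: Eln, Fbn1, Fbln1, Fbln2, Fbln5, Ltbp1, Ltbp2, Ltbp4, Mfap4 and Mfap5. A gene entered where the array platform's gene table gave its symbol, which held for 9 of the 10, among 24704 genes tested. Fbn1, which encodes fibrillin-1, was not analysed here.

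An elastic fibre is built outside the cell. Tropoelastin, the product of Eln, is laid onto a scaffold of fibrillin microfibrils and crosslinked by lysyl oxidases, with fibulins and microfibril-associated proteins guiding the assembly. Latent TGF-beta binding proteins sit on the same microfibrils, where several of them anchor TGF-beta in its inactive form. In the lung these proteins are made chiefly by smooth muscle cells and fibroblasts of vessel walls, airways and alveolar septa, and chronic hypoxia is a standard way of provoking thickening of the pulmonary artery wall.

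The samples were whole mouse lungs, perfused to remove blood and measured on Affymetrix arrays, from a study asking what endothelial loss of the transcription factor Nfat5 does to the lung under chronic hypoxia. Every animal carried the floxed Nfat5 allele and was an adult male or female of 10 to 12 weeks. Knockout animals, Nfat5(EC)-/-, received 1 mg tamoxifen a day on 5 days to delete Nfat5 in endothelial cells, and controls, Nfat5fl/fl, received the solvent miglyol, so that tamoxifen and the deletion cannot be told apart. After 2 to 3 weeks of recovery, lungs of both genotypes were taken after normoxia or after 21 days of hypoxia, which gave 4 groups with 3 arrays each. The promoter driving the Cre was not given in the sources used here. Per the design text there were 4 mice in a group, and lung preparations with contaminating tissue, or with too small an expression response to hypoxia, had been excluded by the submitters, so the size of the hypoxia response was part of how arrays were kept. Arrays are named below by genotype, oxygen state and the replicate number of the labels, which runs 1, 2 and 4 in every group except knockout hypoxia, where it runs 2, 3 and 4. The p-values measure the spread between these samples.

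All values are log2 intensities. Arrays of the same group correlated at 0.99 over all genes. The mean of 6 lung epithelial markers lay between 12.30 and 12.39 over the 12 arrays. All arrays share the same sorted values, so genes at the top of each array can differ little. Scgb1a1 was 13.58 on every array of both knockout groups and of control hypoxia. A level mean is therefore a weak check. With the genotypes averaged, 1 of the 6 was called lower with hypoxia, beside 7.40% of all genes. Nfat5 itself measured 9.11 ± 0.25 (SD, n = 3) in control normoxia, 8.67 ± 0.11 in knockout normoxia, 8.43 ± 0.24 in control hypoxia and 8.34 ± 0.15 in knockout hypoxia. The knockout difference was -0.44 ± 0.15 (SE) in normoxia and -0.08 ± 0.15 in hypoxia, with limma adjusted p-values of 0.62 and 0.974, so in whole lung the targeted gene was not called between genotypes. In normoxia its knockout arrays lay below its control arrays, as for 6.22% of all genes. With hypoxia Nfat5 was called lower in control lungs (-0.68 ± 0.15, limma adjusted p = 0.0157), as were 6.14% of all genes. In knockout lungs its hypoxia change was -0.33 ± 0.15 and was not called. Where the probe set lies relative to the deleted part is not known here, and a probe outside that part would check nothing. Markers of other tissue were high on some arrays: the brown fat marker Ucp1 reached 9.31 in knockout normoxia 2 and 7.66 in control hypoxia 1, and the heart marker Nppa reached 11.94 in knockout normoxia. Of 6 heart markers, 2 were called lower with hypoxia averaged over the genotypes (list median -0.84). Where the heart marker signal came from was not tested. The mean of 5 thymocyte markers stayed between 3.79 and 4.01. In bulk tissue, more cells of a type and more RNA per cell cannot be told apart.

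Proximal promoters from RefSeq (build GRCm38.p6) are shown for 4 genes, chosen because they span the responses described below: Ltbp2 had the largest hypoxia change of the 9 genes in control lungs, Fbln2 the largest gap between genotypes relative to its error, Fbln5 a change of like size in both genotypes, and Ltbp4 the smallest change. Each run is the 250 bases before the transcription start, read 5′ to 3′ on the gene's strand. Capitals mark the core of the hypoxia response element, ACGTG or GCGTG, and the NFAT core, GGAAA, each on either strand.
Ltbp2: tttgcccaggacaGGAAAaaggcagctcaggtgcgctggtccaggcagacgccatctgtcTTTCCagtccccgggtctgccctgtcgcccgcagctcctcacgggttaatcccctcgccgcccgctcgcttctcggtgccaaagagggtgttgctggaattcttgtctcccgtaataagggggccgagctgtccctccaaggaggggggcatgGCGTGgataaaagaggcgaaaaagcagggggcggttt
Fbln2: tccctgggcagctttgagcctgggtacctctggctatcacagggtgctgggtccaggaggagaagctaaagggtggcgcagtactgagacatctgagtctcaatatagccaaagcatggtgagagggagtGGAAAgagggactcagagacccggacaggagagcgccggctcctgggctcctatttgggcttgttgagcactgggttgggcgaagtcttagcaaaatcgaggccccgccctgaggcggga
Fbln5: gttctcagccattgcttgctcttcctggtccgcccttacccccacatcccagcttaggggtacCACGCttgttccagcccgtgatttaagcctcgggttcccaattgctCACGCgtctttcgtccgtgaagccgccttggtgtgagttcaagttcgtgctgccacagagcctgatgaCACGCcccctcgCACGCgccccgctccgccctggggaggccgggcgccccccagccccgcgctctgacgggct
Ltbp4: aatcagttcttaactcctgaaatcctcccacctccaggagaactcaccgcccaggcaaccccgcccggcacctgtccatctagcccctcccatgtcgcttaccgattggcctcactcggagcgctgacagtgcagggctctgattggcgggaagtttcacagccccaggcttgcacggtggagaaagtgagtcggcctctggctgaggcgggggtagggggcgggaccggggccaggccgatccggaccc

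The Ltbp2 stretch lies at chr12:84876492-84876741 on the minus strand and held 1 hypoxia core and 2 NFAT cores. The Fbln2 stretch lies at chr6:91212514-91212763 on the plus strand and held 1 NFAT core and 0 hypoxia cores. The Fbln5 stretch, at chr12:101819120-101819369 on the minus strand, held 4 hypoxia cores, all reading CACGC on the gene's strand, and 0 NFAT cores. The Ltbp4 stretch, at chr7:27337613-27337862 on the minus strand, held neither. Such short letters are common: 38.6% of 27025 mouse promoter stretches of this length held a hypoxia core and 55.6% held an NFAT core. A match describes the letters and is no evidence of binding. A promoter was matched for 6 of the 9 genes. Of the other pair, Ltbp1 held 1 hypoxia core and 3 NFAT cores, and Fbln1 held 1 NFAT core and 3 hypoxia cores, of which 2 overlap in one palindrome, CACGTG.

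The first comparison asked what 21 days of hypoxia does in lungs without the Nfat5 deletion. In control lungs 7 of the 9 genes rose and 0 fell: Ltbp2, Fbln2, Mfap5, Fbln1, Mfap4, Ltbp1 and Fbln5, by 1.39-fold to 2.54-fold. Of all genes tested, 5.36% were called higher and 6.14% lower in the same comparison. For the same 7 genes the lowest hypoxic array lay above the highest normoxic array, as it did for 14.0% of all genes, while 13.7% of genes separated in the opposite direction. The median change of the 9 genes was 0.76, beside 0.01 over all genes. Eln had a mean change of similar size but did not pass the test, and Ltbp4 had the smallest change. The call used limma over all genes at an adjusted p under 0.05. With 3 arrays against 3, an exact permutation test of a single gene cannot go below 0.1.

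In knockout lungs 4 of the 9 genes rose with hypoxia, Mfap5, Ltbp2, Mfap4 and Fbln5, and 0 fell. The background for this comparison was far lower, with 0.640% of all genes called higher and 0.502% lower. The arrays did not overlap for 7 of the 9 genes, the same number as in control lungs, against 10.9% of all genes upward and 8.97% downward. The median change of the 9 genes was 0.36, beside 0.00 over all genes. This count moved most with the choice of arrays, and fell to 1, Mfap5, on leaving out knockout hypoxia 4, knockout normoxia 2 or knockout normoxia 4. It was 2 without control hypoxia 1 or 2, control normoxia 1 or 2, knockout hypoxia 2 or knockout normoxia 1, and 3 without any other single array. Averaged over the genotypes, 7 of the 9 genes rose, against 7.27% of all genes (7.40% were lower), and for each of the 7 the exact permutation p (two-sided, 400 regroupings within genotype) was 0.005, the smallest this design can give. Preparations with too small a response to hypoxia had been excluded beforehand. Neither the permutation nor the limma p-values for hypoxia, here and below, allow for that selection.

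**Figure D1:**
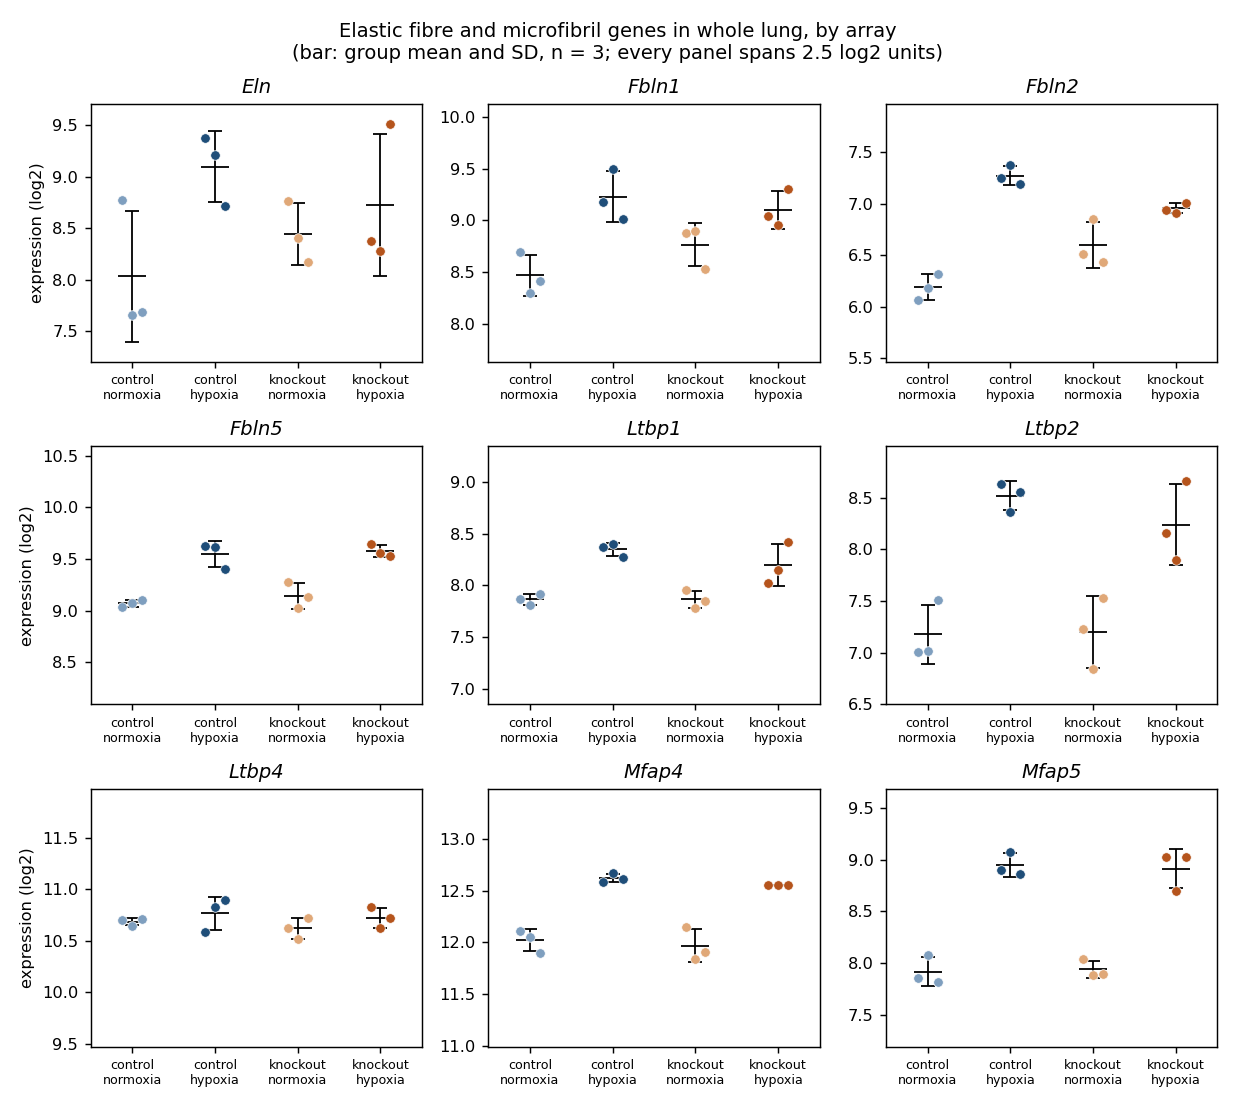
Log2 intensity of the 9 genes on each of the 12 arrays, by group, with 1 panel per gene, points for arrays and a bar for the group mean. For 7 genes the hypoxic arrays lie above the normoxic arrays within each genotype, while the Eln arrays overlap and those of Ltbp4 stay between 10.52 and 10.89.

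Eln encodes tropoelastin, the soluble precursor that becomes the elastic core. In control normoxia it measured 8.77, 7.66 and 7.68 in replicates 1, 2 and 4, and in control hypoxia 9.37, 9.21 and 8.71. In knockout normoxia it measured 8.77, 8.40 and 8.17, and in knockout hypoxia 8.38, 8.28 and 9.51. One normoxic control array lay just above the lowest hypoxic control array, and in the knockout replicate 4 stood far above the other hypoxic arrays, which lay among the normoxic values. The change was 1.06 ± 0.36 (SE) in control lungs, a 2.09-fold difference with an adjusted p of 0.0767 from limma and an exact permutation p of 0.2. In knockout lungs it was 0.28 ± 0.36 (95% interval -0.51 to 1.06, adjusted p = 0.845 from limma). Eln had the widest spread of the set: its within-group SD was 0.52, which 1.34% of all genes exceeded, against a median gene's 0.15. Single arrays decided its value. Without control normoxia 1 the change in control lungs was 1.43 with an adjusted p of 0.043 from limma, and without knockout hypoxia 4 the change in knockout lungs was -0.12.

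Mfap4 and Mfap5 encode proteins of the microfibril surface: Mfap4 binds elastin and collagen, and Mfap5 (MAGP-2) binds fibrillin. Mfap5 measured 7.86, 8.08 and 7.81 in control normoxia and 8.90, 9.08 and 8.86 in control hypoxia. In the knockout it went from 8.04, 7.88 and 7.90 in normoxia to 9.02, 8.70 and 9.02 in hypoxia. All 6 hypoxic arrays lay above all 6 normoxic arrays, whatever the genotype. Mfap5 rose by 1.03 ± 0.11 in control lungs (2.04-fold, adjusted p = 0.0015) and by 0.98 ± 0.11 in knockout lungs (1.97-fold, adjusted p = 0.004), both from limma. It was the gene of this set called in both genotypes whichever single array was left out.

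Mfap4 was among the brightest probe sets of the table, above 99.9% of genes by its mean. It measured 12.11, 12.05 and 11.90 in control normoxia and 12.59, 12.67 and 12.62 in control hypoxia. In knockout normoxia it measured 12.15, 11.84 and 11.91, and in knockout hypoxia 12.55 on all 3 arrays. The 3 equal values arise because Mfap4 ranked 20 from the top on each of those arrays, and after quantile normalization equal ranks have equal values. The SD of 0 in that group is therefore not a measure of how alike the animals were. Mfap4 rose by 0.60 ± 0.09 in control lungs (1.52-fold, adjusted p = 0.00533) and by 0.59 ± 0.09 in knockout lungs (1.5-fold, adjusted p = 0.0118), both from limma. The knockout call was lost without knockout hypoxia 4, knockout normoxia 2 or knockout normoxia 4, with limma adjusted p-values of 0.053 to 0.0644.

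The fibulins bridge elastin and microfibrils. Fbln5, which is needed for elastic fibre assembly and tethers fibres to cells through integrins, measured 9.04, 9.07 and 9.10 in control normoxia and 9.62, 9.61 and 9.40 in control hypoxia. In knockout normoxia its values were 9.28, 9.02 and 9.13, and in knockout hypoxia 9.64, 9.56 and 9.53. The hypoxic arrays of both genotypes lay above every normoxic array. Fbln5 rose by 0.48 ± 0.09 in control lungs (1.39-fold, adjusted p = 0.01) and by 0.43 ± 0.09 in knockout lungs (1.35-fold, adjusted p = 0.0463), both from limma. The knockout call sat at the threshold and was kept in 1 of the 12 fits that left out a single array, the one without control hypoxia 4 (adjusted p = 0.0477, against 0.0541 to 0.195 in the other fits).

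Fbln2, a basement membrane and microfibril protein that is prominent where vessel walls are remodelled, had the largest gap between the 2 genotypes' responses relative to its error. It measured 6.07, 6.18 and 6.32 in control normoxia and 7.25, 7.38 and 7.19 in control hypoxia. Knockout lungs started higher, at 6.51, 6.85 and 6.43, and ended lower, at 6.94, 6.91 and 7.01. The 4 groups did not overlap with each other on any array, in the order control normoxia, knockout normoxia, knockout hypoxia, control hypoxia. Fbln2 rose by 1.08 ± 0.11 in control lungs (2.12-fold, adjusted p = 0.00111 from limma). In knockout lungs the change was 0.36 ± 0.11 with an adjusted p of 0.187 from limma.

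Fbln1 encodes a calcium-binding glycoprotein found within the elastin core and in basement membranes. Its values were 8.69, 8.30 and 8.42 in control normoxia and 9.18, 9.5 and 9.01 in control hypoxia. Knockout lungs had 8.88, 8.89 and 8.53 in normoxia and 9.05, 8.95 and 9.31 in hypoxia. Hypoxic arrays were above normoxic arrays within each genotype, narrowly so in the knockout. Fbln1 rose by 0.76 ± 0.16 in control lungs (1.70-fold, adjusted p = 0.013 from limma), and the change in knockout lungs was 0.34 ± 0.16 with an adjusted p of 0.40. The control call was lost without control hypoxia 2 (adjusted p = 0.0572) or control normoxia 2 (0.0547), both from limma.

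The latent TGF-beta binding proteins diverged. Ltbp2, which binds fibrillin and, unlike its relatives, does not bind latent TGF-beta, measured 7.01, 7.01 and 7.51 in control normoxia and 8.64, 8.37 and 8.56 in control hypoxia. In the knockout it measured 7.23, 6.84 and 7.53 in normoxia and 8.16, 7.90 and 8.66 in hypoxia. Each genotype showed a clear gap between its normoxic and hypoxic arrays. Ltbp2 rose by 1.34 ± 0.22 in control lungs (2.54-fold, adjusted p = 0.00607) and by 1.04 ± 0.22 in knockout lungs (2.06-fold, adjusted p = 0.0463), both from limma. The knockout call was kept in 2 of the 12 fits that left out a single array, those without control normoxia 4 or knockout hypoxia 3, and the change in knockout lungs lay between 0.83 and 1.21 over the 12.

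Ltbp1, which carries latent TGF-beta into the matrix, measured 7.87, 7.81 and 7.92 in control normoxia and 8.37, 8.40 and 8.28 in control hypoxia. In knockout normoxia it measured 7.95, 7.78 and 7.85, and in knockout hypoxia 8.02, 8.14 and 8.42. The 3 knockout hypoxic values were spread more widely than the control ones but stayed above all normoxic values. Ltbp1 rose by 0.49 ± 0.10 in control lungs (1.40-fold, adjusted p = 0.0143 from limma), and this call was lost without control hypoxia 2 (0.0594) or control normoxia 2 (0.0549). The change in knockout lungs was 0.33 ± 0.10 with an adjusted p of 0.169 from limma.

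Ltbp4, which organises elastin with Fbln5 and whose loss impairs lung septation, gave 10.70, 10.64 and 10.71 in control normoxia and 10.58, 10.82 and 10.89 in control hypoxia. Knockout lungs gave 10.62, 10.52 and 10.72 in normoxia and 10.82, 10.63 and 10.72 in hypoxia. The groups overlapped throughout. The hypoxia change was 0.08 ± 0.10 in control lungs (95% interval -0.13 to 0.29) and 0.10 ± 0.10 in knockout lungs (-0.11 to 0.31). The upper ends of both intervals lie below the estimated change of every one of the 7 genes that rose in control lungs.

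**Figure D2:**
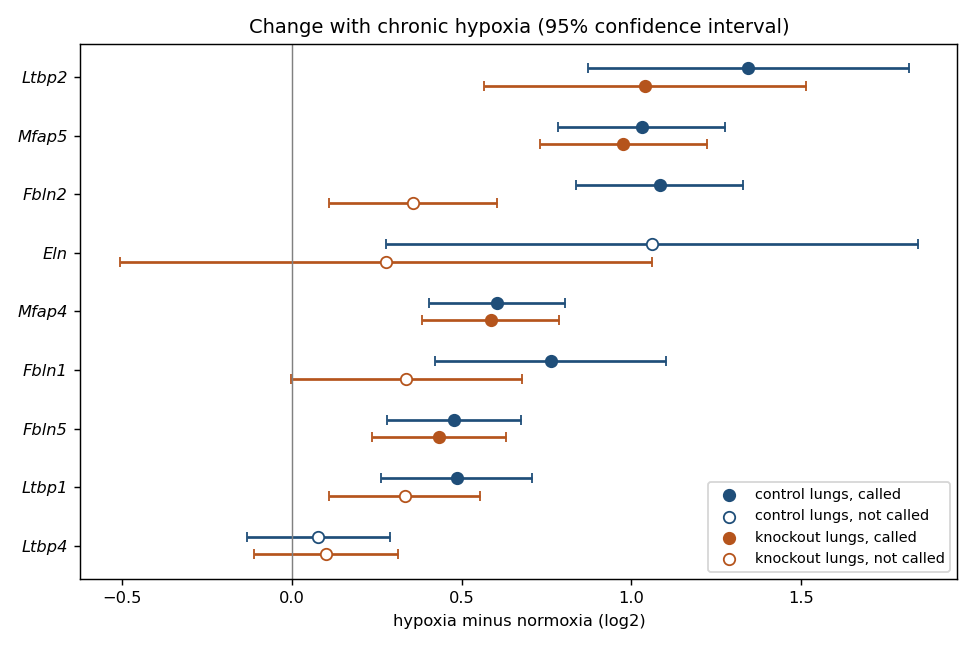
Log2 change with hypoxia for each of the 9 genes in control and in knockout lungs, points with 95% intervals from the limma fit and a line at 0. All 18 points lie above 0, and 8 of the 9 genes have a smaller point in the knockout, though no gene's difference between genotypes passed the test. Of all genes, 52.3% had a change above 0 in control and 50.9% in knockout lungs, and 49.7% had an interaction above 0. The 9 genes share the same arrays, so these counts are not independent observations.

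Put on one scale, with each gene centred on its own mean over the 12 arrays, the 9 genes together stood at -0.38 ± 0.07 (SD, n = 3) in control normoxia and 0.39 ± 0.09 in control hypoxia. They stood at -0.25 ± 0.09 in knockout normoxia and 0.24 ± 0.18 in knockout hypoxia. The distance between oxygen states was larger than the spread in both genotypes, and the neighbouring means of the 2 genotypes lay within 2 SD of each other in each oxygen state.

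The next comparisons asked whether endothelial loss of Nfat5 altered these genes. In normoxia, in hypoxia, averaged over oxygen states and in the interaction, 0 of the 9 genes were called in either direction by limma. The background was as empty: 1 gene of 24704 was called higher in normoxia (0.00405%), 0 genes in hypoxia or averaged, and 1 gene lower in the interaction (0.00405%). At an unadjusted p under 0.05 there was 1 of the 9 genes in normoxia, in hypoxia and in the interaction, each time Fbln2, and 0 averaged over oxygen states. The same unadjusted threshold was met by 7.26% of all genes in normoxia, 5.1% in hypoxia and 8.25% in the interaction.

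Fbln2 was 0.41 ± 0.11 higher in knockout than in control lungs in normoxia (95% interval 0.16 to 0.65, limma adjusted p = 0.564). In hypoxia it was lower, at -0.32 ± 0.11 (-0.57 to -0.07, limma adjusted p = 0.947). Its arrays did not overlap between genotypes in either oxygen state, for which the exact permutation p (two-sided) was 0.1, the smallest possible. Such separation was seen for 5.46% of all genes upward and 6.22% downward in normoxia, and for 4.55% upward and 5.19% downward in hypoxia. The hypoxia change was smaller in the knockout by 0.73 ± 0.16 (interaction -0.73, 95% interval -1.08 to -0.38, limma adjusted p = 0.574). It did not pass the correction over all genes, and in none of the 12 fits that left out a single array was it called (lowest adjusted p = 0.206 from limma). Over those fits the interaction lay between -0.81 and -0.60, and the normoxia difference between 0.28 and 0.49. The highest Fbln2 value in knockout normoxia, 6.85, came from knockout normoxia 2, an array high in Ucp1.

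For the other genes the interaction was smaller relative to its error. It was -0.78 ± 0.51 for Eln, -0.42 ± 0.22 for Fbln1 and -0.30 ± 0.31 for Ltbp2. For Ltbp1 it was -0.15 ± 0.14, and for Mfap5, Fbln5 and Mfap4 it lay between -0.05 and -0.02. The intervals show how much each gene could still differ: for Mfap4 it ran from -0.30 to 0.26, for Fbln5 from -0.32 to 0.24 and for Mfap5 from -0.40 to 0.29, while for Eln it ran from -1.89 to 0.32. Ltbp4 was the 1 gene of the 9 with an interaction above 0, at 0.02 ± 0.14. In hypoxia the Mfap4 arrays also did not overlap between genotypes, with knockout lower by a mean of 0.07 on the log2 scale, a gap of 1 rank between the nearest arrays and subject to the equal values described above.

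**Figure D3:**
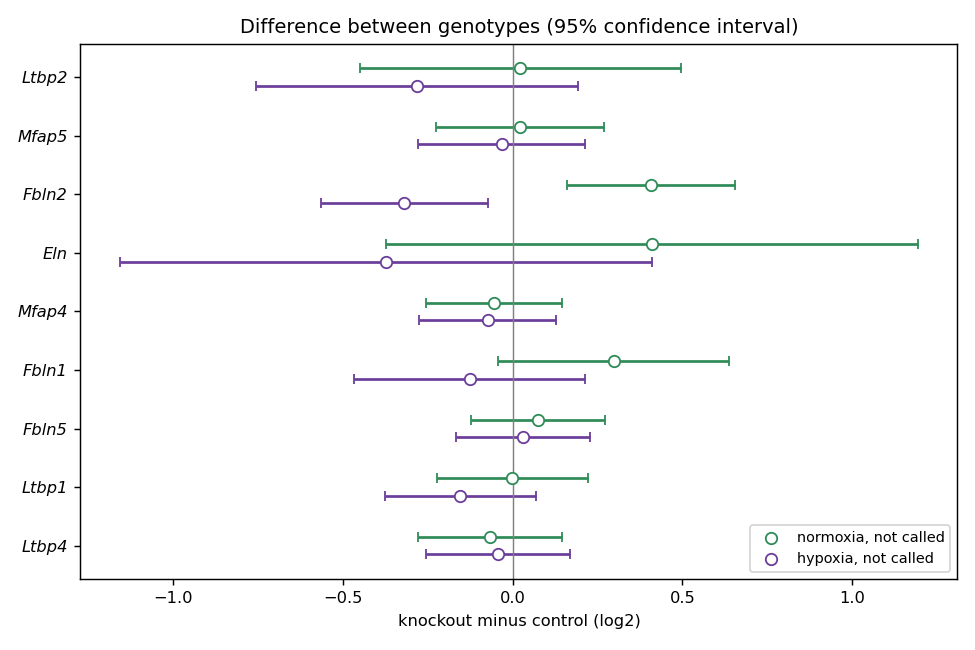
Log2 difference, knockout minus control, for each of the 9 genes in normoxia and in hypoxia, points with 95% intervals from the limma fit and a line at 0. Fbln2 is the 1 gene whose intervals exclude 0, above it in normoxia and below it in hypoxia, and Eln has the widest intervals.

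Markers of cells that make elastic fibres were measured beside these genes. The marker counts here and below stand beside 5.36% of all genes called higher and 6.14% lower with hypoxia in control lungs. In knockout lungs these shares were 0.640% and 0.502%. The mean of 8 smooth muscle markers ranged from 7.87 to 8.11 in control normoxia and 8.34 to 8.5 in control hypoxia, and from 8.18 to 8.22 in knockout normoxia and 8.22 to 8.40 in knockout hypoxia. Of the 8, 4 rose with hypoxia in control lungs (median of the list 0.48) and 0 passed in knockout lungs (0.07). The mean of 8 adventitial fibroblast markers ranged from 7.17 to 7.65 and 7.69 to 7.78 in control normoxia and hypoxia, and from 7.49 to 7.66 and 7.61 to 7.76 in the knockout. Of these, 2 rose in control lungs (median 0.36) and 0 passed in knockout lungs (0.14). Of 8 alveolar fibroblast markers, 2 rose and 1 fell in control lungs (median 0.18) and 0 passed in knockout lungs (0.10). Of 7 airway cartilage markers 2 rose in control lungs, though the list mean stayed low, at 3.45 to 3.75, below the array median of 4.55. The part of these cells in the results was not tested.

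A list of 10 nuclear noncoding RNAs also followed the groups. Its mean ranged from 6.31 to 6.72 in control normoxia, 5.52 to 5.90 in control hypoxia, 6.04 to 6.45 in knockout normoxia and 5.70 to 6.15 in knockout hypoxia, and 6 of the 10 fell with hypoxia in control lungs. With that mean as a covariate the changes in control lungs were 1.31 for Eln, 1.17 for Fbln2, 0.89 for Mfap5, 0.88 for Ltbp2, 0.72 for Fbln1, 0.54 for Mfap4, 0.46 for Ltbp1, 0.30 for Fbln5 and -0.23 for Ltbp4. Those of Ltbp2 and Fbln5 were over 1.5 times smaller than without it, and Ltbp4 turned below 0. With it 0 of the 9 genes were called, with adjusted p-values from limma of 0.27 upward, in a fit that called 2 of all genes. Because the list mean itself separates the oxygen states in control lungs, that fit is less precise. The SE of the Eln change was 0.70 with the covariate and 0.36 without it. A lost call in that fit is therefore not the same as a lost change. What the list's shift contributes was not tested. Without the 2 arrays high in Ucp1 the count in control lungs stayed at 7 of 9, and in knockout lungs it was 1 of 9.

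Both sexes were used, and Y-linked genes were unevenly placed over oxygen states. The mean of 3 Y-linked genes was 5.31 and 5.25 in control and knockout normoxia, with arrays from 3.04 to 6.69 and from 2.98 to 6.66. It was 3.89 and 3.87 in control and knockout hypoxia, with arrays from 3.08 to 5.34 and from 2.99 to 5.36. With this mean as a covariate the same count of 7 of the 9 genes was called in control lungs, but 2 in place of 4 in knockout lungs, where Fbln5 had a limma adjusted p of 0.107 and Ltbp2 one of 0.0975. The Eln change was 0.74 in control lungs and -0.03 in knockout lungs with it. The part of sex in the results was not tested further.

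Other proteins of the elastic fibre did not move as a block. Of 19 measured, 2 rose and 1 fell in control lungs, 1 rose in knockout lungs, and the median change was 0.08 and 0.02. This count and those of the lists below stand beside 5.36% of all genes called higher and 6.14% lower in control lungs. In knockout lungs the shares were 0.640% and 0.502%. Emilin1, a glycoprotein at the interface of elastin and microfibrils, rose by 0.93 ± 0.18 in control lungs (adjusted p = 0.0103 from limma) and had a change of 0.35 ± 0.18 in knockout lungs. Adamtsl2, a microfibril-binding protein, rose in both genotypes, by 1.09 ± 0.21 and 1.22 ± 0.21 (limma adjusted p = 0.0106 and 0.0194), though the knockout count of this list was 0 without knockout hypoxia 3 or 4 or knockout normoxia 2 or 4. Adamts10, a protease that promotes fibrillin microfibril formation, fell by 0.70 on the log2 scale in control lungs (limma adjusted p = 0.0127), from 7.90 ± 0.25 (SD, n = 3) to 7.20 ± 0.10. In knockout lungs it stood at 7.40 ± 0.11 in normoxia and 7.24 ± 0.23 in hypoxia. Mfap2 (MAGP-1), the close relative of Mfap5, showed 0.03 ± 0.17 and 0.09 ± 0.17, neither called.

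The lysyl oxidases, which crosslink elastin and collagen, rose in control lungs in 4 of 5 cases, with a median change of 0.79. Loxl1, the family member tied most closely to elastic fibre renewal, went from 8.63 ± 0.25 (SD, n = 3) to 9.66 ± 0.23, a rise of 1.03 ± 0.16 (SE), and Lox went from 7.36 ± 0.18 to 8.15 ± 0.03, a rise of 0.79 ± 0.13. Loxl2 and Loxl3 rose by 0.91 ± 0.23 and 0.69 ± 0.16. In knockout lungs 0 of 5 passed, with a median of 0.50, and Lox was close to the threshold at 0.59 ± 0.13 (limma adjusted p = 0.0512). The difference between genotypes was not called for any of the 5. The count in control lungs was 2 without control hypoxia 2 or control hypoxia 4, and that in knockout lungs was 1 without control normoxia 1.

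Of 12 proteases able to cleave elastin, 2 rose in each genotype, Mmp2 and the cysteine protease Ctsk. Mmp2, gelatinase A, went from 8.57 ± 0.13 (SD, n = 3) to 10.11 ± 0.35 in control lungs, a rise of 1.54 ± 0.18 (2.90-fold, limma adjusted p = 0.00211), and from 9.0 ± 0.28 to 9.91 ± 0.20 in knockout lungs, a rise of 0.92 ± 0.18 (limma adjusted p = 0.0408). Ctsk rose by 1.01 ± 0.17 and 0.96 ± 0.17. The macrophage elastase Mmp12 was variable, with knockout hypoxia arrays between 5.25 and 8.21, and its changes of 0.79 ± 0.61 and 1.57 ± 0.61 did not pass. The protease count in knockout lungs was 1 without any of the 3 control normoxia arrays, control hypoxia 2 or knockout hypoxia 3, and 0 without knockout hypoxia 2 or 4 or knockout normoxia 2 or 4.

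Of 9 protease inhibitors, 3 rose in control lungs and 2 in knockout lungs. Timp3, which is bound in the matrix, rose by 0.35 ± 0.08 and 0.47 ± 0.08, and the serpin Serpina3n rose by 0.99 ± 0.12 and 0.73 ± 0.12. Timp1 was at the threshold in control lungs, with 0.70 ± 0.21 and a limma adjusted p of 0.0499, and its control arrays lay between 3.82 and 5.10, around the median of all genes. The control count was 1 without control normoxia 1 or 2. The knockout count was 1 without knockout hypoxia 3 or knockout normoxia 4, and 0 without knockout hypoxia 2 or 4 or knockout normoxia 1 or 2.

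Because Ltbp1 and Ltbp4 hold latent TGF-beta, the ligands, activating integrins and response genes were listed as well. Of 11 ligand and integrin genes, 0 were called in either genotype, and 1 was called in control lungs without control hypoxia 1 or 4 or control normoxia 1 or 2. With the genotypes averaged, Itga5 (0.38 ± 0.11, limma adjusted p = 0.0343) and Itgb5 (0.23 ± 0.06, limma adjusted p = 0.0284) were called higher. Itgb3 was called lower (-0.26 ± 0.08, limma adjusted p = 0.0442). The averaged comparison called 7.27% of all genes higher and 7.40% lower. This list's averaged count of 3 was 0 with the nuclear RNA or the Y-linked covariate. It lay between 0 and 3 on leaving out 1 array. Tgfb3 had a change of 0.60 ± 0.19 in control lungs (limma adjusted p = 0.0576) and Tgfb1 one of 0.39 ± 0.15 (0.123). Of 8 response genes, 4 rose in control lungs and 1 in knockout lungs. Only 4 of the 8 had a change above 0 in each genotype, with list medians of 0.23 in control and -0.01 in knockout lungs. Ccn2, connective tissue growth factor, rose by 0.78 ± 0.15 in control lungs, and Pmepa1, a feedback inhibitor, rose by 0.87 ± 0.09 and 0.76 ± 0.09 in the 2 genotypes (limma adjusted p = 0.00149 and 0.00508). Smad7, the inhibitory Smad, had a change of -0.31 ± 0.16 and -0.44 ± 0.16 and was called lower with the genotypes averaged (-0.38 ± 0.11, limma adjusted p = 0.0424). None of these lists had a call in any genotype comparison or in the interaction. With the nuclear RNA covariate, 0 genes of any of the 6 lists were called with hypoxia in control lungs.

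**Figure D4:**
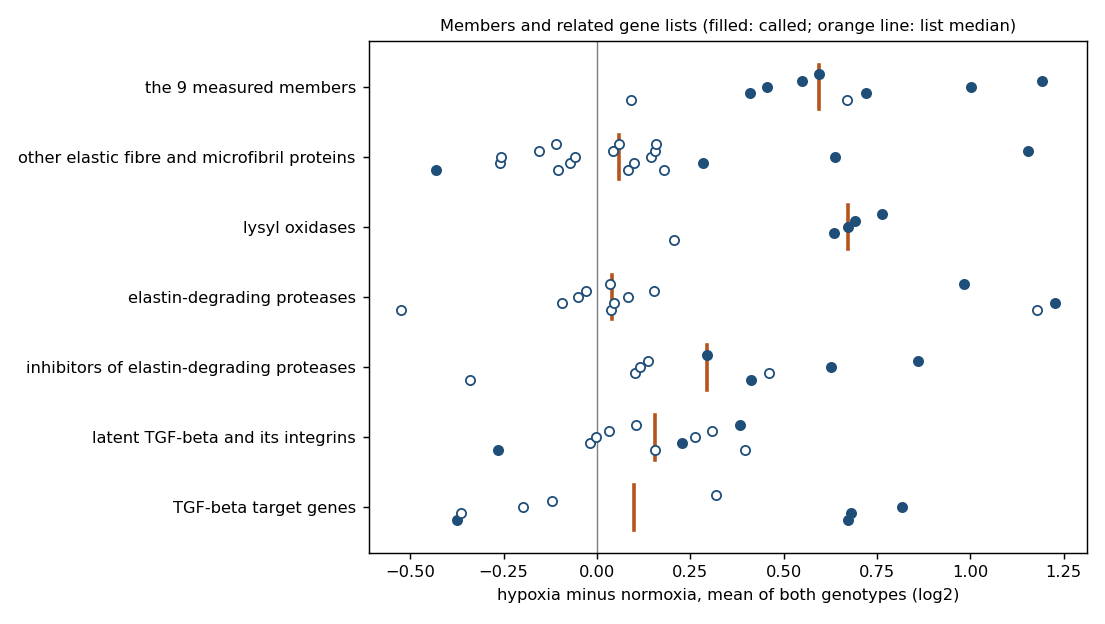
Log2 change with hypoxia, averaged over the genotypes, for each of the 9 elastic fibre genes and each gene of the 6 related lists. Filled points were called, and a bar marks each list's median. The lysyl oxidases have the highest list median of the 6 related lists, at 0.67, while other elastic fibre proteins centre near 0, at 0.06.

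The genes whose values over the 12 arrays most resembled the mean of the 9 were sought as a description, since all share the same arrays and the same hypoxia difference. The closest by Pearson r were Nrtn (0.98), Col1a2, Sdk1, Olfml3, Sod3, Ctsa, Mrc2 and Igfbp2 (each 0.97). Col1a2, a chain of fibrillar collagen type I, had a hypoxia difference of 0.84 in control and 0.41 in knockout lungs. Sod3, the extracellular superoxide dismutase, had 0.77 and 0.49, and Igfbp2, an insulin-like growth factor binding protein, had 1.48 and 0.91. Each of the 8 had a larger difference in control than in knockout lungs, as the mean of the 9 genes had. They were chosen for likeness to that mean, so this adds no evidence on the genotypes. For Eln alone the closest were Col5a2 (0.94), Col3a1 (0.91), Igf2r (0.89), Tnc (0.88) and Col6a2 (0.88), of which 3 encode collagen chains and Tnc the matrix glycoprotein tenascin-C. Col3a1 had hypoxia differences of 1.01 and 0.16, beside 1.06 and 0.28 for Eln.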

How the data were processed

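The deposited values were log2 intensities for 25428 probe sets on 12 arrays, made by the authors with RMA, a method that corrects background, applies quantile normalization and summarizes each probe set, per the submitters' processing notes; its version is not stated there. In the deposited table the sorted values are the same on every array. The platform's gene table gave 24705 probe sets 1 symbol, 723 none and 0 several. For a symbol with 2 probe sets the brighter was kept, which left 24704 genes.

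The number of arrays limits the precision. No filter was applied and the values were used as deposited. limma 3.58.1 in R 4.3.3 fitted 4 group means over all 12 arrays (8 residual degrees of freedom), with empirical Bayes moderation, two-sided tests and Benjamini-Hochberg adjustment over all 24704 genes. Calls required an adjusted p under 0.05, and intervals are 95%. The 9 measured genes are all named, and from each related list up to 4 genes of smallest p in the averaged hypoxia comparison, plus Lox, Loxl1, Mfap2 and Tgfb1. The genes, lists and alternatives were chosen with earlier results of these data known. Same-numbered arrays were checked for pairing. Alternatives were the replicate block, a filter on low values, only the groups compared, a trended robust prior, array weights, each array left out, both arrays high in Ucp1 left out, 2 covariates (nuclear RNA and Y-linked means) and averaging of probe sets.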

Additional observations from a re-analysis of the deposited data

How the results depend on the processing

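The sign of the hypoxia change was kept in 188 of 189 gene values in control lungs, 187 of 189 in knockout lungs and 179 of 180 averaged. The exceptions were Ltbp4 with the nuclear RNA covariate (-0.23 in control lungs and -0.11 averaged) and Eln in knockout lungs without knockout hypoxia 4 (-0.12) and with the Y-linked covariate (-0.03). The number of genes called in control lungs, 7, became 0 with the nuclear RNA covariate and lay between 5 and 8 on leaving out 1 array. In knockout lungs the 4 became 2 with the replicate block (Ltbp2 and Mfap5), and 2 with only the groups compared, with the nuclear RNA covariate and with the Y-linked covariate (Mfap4 and Mfap5 each time). It was 1 (Mfap5) without both arrays high in Ucp1, and between 1 and 3 on leaving out 1 array. Averaged over genotypes the 7 became 1 (Mfap5) with the nuclear RNA covariate and lay between 7 and 8 otherwise. The genotype and interaction counts stayed at 0 of 9 under every alternative run. Same-numbered arrays correlated between -0.25 and 0.28 in their deviations from the group means, above 0.1 in 4 of 15 pairs. With 3 arrays in a group this cannot decide whether the numbers mark pairs. The main fit did not pair the arrays, and the block left 7 in control lungs and gave 8 averaged. Number 3 occurs in knockout hypoxia alone, so the block also takes knockout hypoxia 3 out of every comparison. Block results that involve knockout hypoxia therefore mix pairing with the loss of that array. Over all genes, calls higher in control lungs went from 1323 to 477 with only the groups compared, 798 with the Y-linked covariate and 2 with the nuclear RNA covariate. In knockout lungs they went from 158 to 26 with the replicate block, 280 with array weights, 26 without both arrays high in Ucp1, 87 with the Y-linked covariate and 77 with the nuclear RNA covariate. On leaving out 1 array they ranged from 372 to 1911 in control lungs, from 35 to 137 in knockout lungs and from 1124 to 2256 averaged (1795 with all arrays), where the nuclear RNA covariate gave 30 and the Y-linked covariate 1070. Eln in control lungs was called with the low-value filter (adjusted p = 0.048 from limma). Of the related lists in control lungs, the lysyl oxidase count of 4 became 2 with the replicate block, the inhibitor count of 3 became 1 with only the groups compared, and the count of 0 for TGF-beta ligands and integrins became 1 with the low-value filter, the trended prior and without both arrays high in Ucp1. The nuclear RNA covariate took all 6 lists to 0 there. In knockout lungs the protease count of 2 became 1 with the block and either covariate, and 0 with only the groups compared and without both arrays high in Ucp1. The inhibitor count of 2 became 1 with the block and the Y-linked covariate, and 0 without both arrays high in Ucp1. The count of 1 for other elastic fibre proteins became 0 with the block and without both arrays high in Ucp1, and the lysyl oxidase count of 0 became 1 with the low-value filter, the trended prior and array weights.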
